A study of Mus musculus with 18 samples.

Results

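The cytosolic ribosomal protein genes were followed across 18 samples of striatal microglia in 4 genotype groups. Members were selected on their symbol and on the level measured in these samples: the protein-coding genes of GENCODE M21 whose symbols begin with *Rpl* or *Rps* and a digit, together with *Rpsa*, *Rplp0*, *Rplp1* and *Rplp2*. Genes of the *Rps6k* kinases and symbols ending in -ps, with or without a number, were left out. Members also had to reach at least 1 CPM (a count scaled by the total counts of its library) in at least 3 samples. Of 85 matching symbols, 81 met that minimum, out of 34037 genes with a count in any sample. They were 49 *Rpl* genes (large subunit) and 32 *Rps* genes (small subunit) on 19 chromosomes, with 4 of them on X, and all 81 had counts in every sample. Just inside the minimum were *Rpl24* and *Rpl36al*, whose third-highest CPM was 2.35 and 2.92, and just outside were *Rps27rt* (0.965), *Rpl39l* (0.833), *Rpl3l* (0.213) and *Rpl10l* (listed at 0). The symbol pattern also took in *Rps19bp1*, which encodes a protein that binds Rps19 and is not itself a ribosomal protein.

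Ribosomes of the cytosol are built from ribosomal RNA and one copy of most of these proteins, so cells make them in matched amounts. Their mRNAs typically begin with a run of pyrimidines, the terminal oligopyrimidine (TOP) motif, through which mTOR signalling controls their translation together. They are among the most abundant mRNAs of most cell types, microglia included, and many processed pseudogenes copy them.

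The cells came from striatum and were pulled out of the tissue suspension with beads that bind CD11b, an integrin chain carried by myeloid cells. Read counts per gene were analysed. The strain label of every mouse was C57BL/6. The groups were 5 WT samples (1 female), 3 Tyrobp-KO samples (2 females) that lack *Tyrobp*, a signalling adaptor of microglial receptors, 5 Q175 samples (4 females) and 5 Q175;Tyrobp-KO samples (2 females). Q175 mice carry a mutant huntingtin allele with an expanded CAG repeat, here in heterozygous form, and model Huntington's disease, and the deletion of *Tyrobp* is constitutive and not limited to microglia. Ages are not given in the labels for these samples, which name 2 striata per sample where the methods name 1. The methods describe dissociation of striata mouse by mouse, but nothing in the labels says whether each sample was a separate mouse. The p-values therefore measure the spread between samples. *Tyrobp* had 351 ± 126 normalized CPM (SD, n = 5) in WT and 283 ± 56.2 (n = 5) in Q175, against 19.5 ± 1.92 (n = 3) in Tyrobp-KO and 12.96 ± 1.88 (n = 5) in Q175;Tyrobp-KO samples, with no overlap between samples with and without the deletion.

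Total counts were between 11260410 and 29771983 per sample. Normalized CPM below are CPM after TMM scaling of the library sizes. All 20 microglial markers were detected in every sample, with a geometric mean of 525 to 1204 normalized CPM. The same mean was 84.4 to 344 for 10 oligodendrocyte markers, 19.5 to 112 for 15 astrocyte markers and 8.35 to 43.0 for 18 neuronal markers. It was 1.79 to 7.45 for 10 endothelial markers, 2.46 to 40.6 for 6 ependymal or choroid plexus markers, 2.54 to 7.30 for 7 markers of border macrophages, 0.869 to 11.6 for 10 of monocytes or neutrophils, and 7.10 to 12.6 for 14 genes of the dissociation response. Libraries Tyrobp-KO replicate 20 and Q175 replicate 14 stood apart in the 13 mitochondrially encoded protein genes, which took 4.66% and 5.77% of their counts and between 0.554% and 2.38% in the other 16. In bulk samples, fewer cells of a type and less RNA per cell cannot be told apart.

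The start sites of these genes were read from RefSeq promoters of GRCm38.p6, because the tract at the 5′ end is the sequence feature the family is known by. A tract was counted where a C began at least 8 consecutive C or T bases on the strand of the gene, between 20 bases before and 30 bases after a RefSeq start. Of the 61 members with a RefSeq entry, 33 (54.1%) held a tract, against 4605 of all 27025 genes of the table (17.04%). The following windows reach from 10 bases before the start to 20 after it, with the tract in capitals. The first 3 are members whose level followed the median of the family closely from library to library, and *Rps6* is a member that swung more widely than the family did. The next 3 moved little with the family and hold a tract, and the last 3 moved little with it and have no tract in the window. Members without a tract that followed the median closely, such as *Rpl23*, *Rpl26* and *Rps3*, are not shown.
Rps18 (chr17:33955646-33955675, minus strand): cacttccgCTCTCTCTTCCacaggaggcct
Rplp2 (chr7:141447641-141447670, plus strand): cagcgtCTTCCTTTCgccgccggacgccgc
Rpl35 (chr2:39005112-39005141, minus strand): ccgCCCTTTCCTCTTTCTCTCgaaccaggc
Rps6 (chr4:86857348-86857377, minus strand): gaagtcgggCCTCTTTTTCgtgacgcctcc
Rps10 (chr17:27635225-27635254, minus strand): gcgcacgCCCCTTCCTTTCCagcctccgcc
Rpl13a (chr7:45128726-45128755, minus strand): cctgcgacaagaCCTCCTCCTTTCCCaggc
Rpl7a (chr2:26910797-26910826, plus strand): CTCTTCTTTCTTTCTCCagcagccgagcaa
Rpl7l1 (chr17:46782637-46782666, minus strand): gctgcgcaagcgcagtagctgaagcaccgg
Rps19bp1 (chr15:80264287-80264316, minus strand): cggaagtagctcgccgcgtgtgggcggggc
Rplp0 (chr5:115559457-115559486, plus strand): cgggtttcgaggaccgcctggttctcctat

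Levels of the 81 genes spanned a wide range. Per kilobase of exon, the highest mean levels over the 18 samples were those of *Rplp1*, an acidic protein of the ribosomal stalk (649 normalized CPM per kb), *Rps15* (270.1), *Rps29* (268), *Rps4x* (181) and *Rps3a1* (169). The median member had 52.6 normalized CPM per kb. The lowest were *Rpl36al* (1.59), *Rpl24* (1.67), *Rps10* (3.86), *Rps19bp1* (5.32) and *Rpl13a* (6.12).

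Annotation and near-identical copies limit these levels. The exonic length covers all annotated exons of a gene and can exceed the length of its mRNA. *Rps24* had a mean of 263 normalized CPM over 6256 bases and thus 42.0 per kb, and *Rplp1* had 324 over 499 bases. The order of genes per kb therefore depends in part on annotated length. The lowest genes named above were also the lowest in mean normalized CPM, from 1.72 (*Rpl24*) to 12.9 (*Rpl13a*). Of the 50-base stretches of a member's transcripts, a median of 76.5% occurred in no other gene's transcripts, from 15.95% for *Rpl35* up to 100%, reached for example by *Rps19bp1*. That share was 40.0% for *Rplp1* and 29.0% for *Rps3a1*, whose reads may have been split with copies. Exons of other genes overlapped 66.2% of the exonic length of *Rpl35* and 62.3% of *Rpl23a*, whose levels were 56.7 and 78.1 normalized CPM per kb. Among the members of low level, they overlapped 47.0% of the exonic length of *Rpl24*, 35.4% of *Rpl13a*, 28.7% of *Rps10* and 24.5% of *Rpl36al*. There the overlapping *Gm28037*, *Gm45713*, *RPS10-NUDT3* and *Gm49383* lie on the same strand as the member, where strand cannot separate their reads. *Arpc5l* and *Wdr38* at *Rpl35* and *Tlcd1* at *Rpl23a* lie on the opposite strand, but libraries were non-directional. The levels of all 6 are thus uncertain. For *Rpl24* and *Rps10* the overlapping transcripts *Gm28037* and *RPS10-NUDT3* were both listed at 0 in all samples. Genes not annotated as protein-coding whose ribosomal protein symbols end in -ps, with or without a number, took between 0.00471% and 0.00759% of the counts. Copies under other symbols are not in this share.

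**Figure D1:**
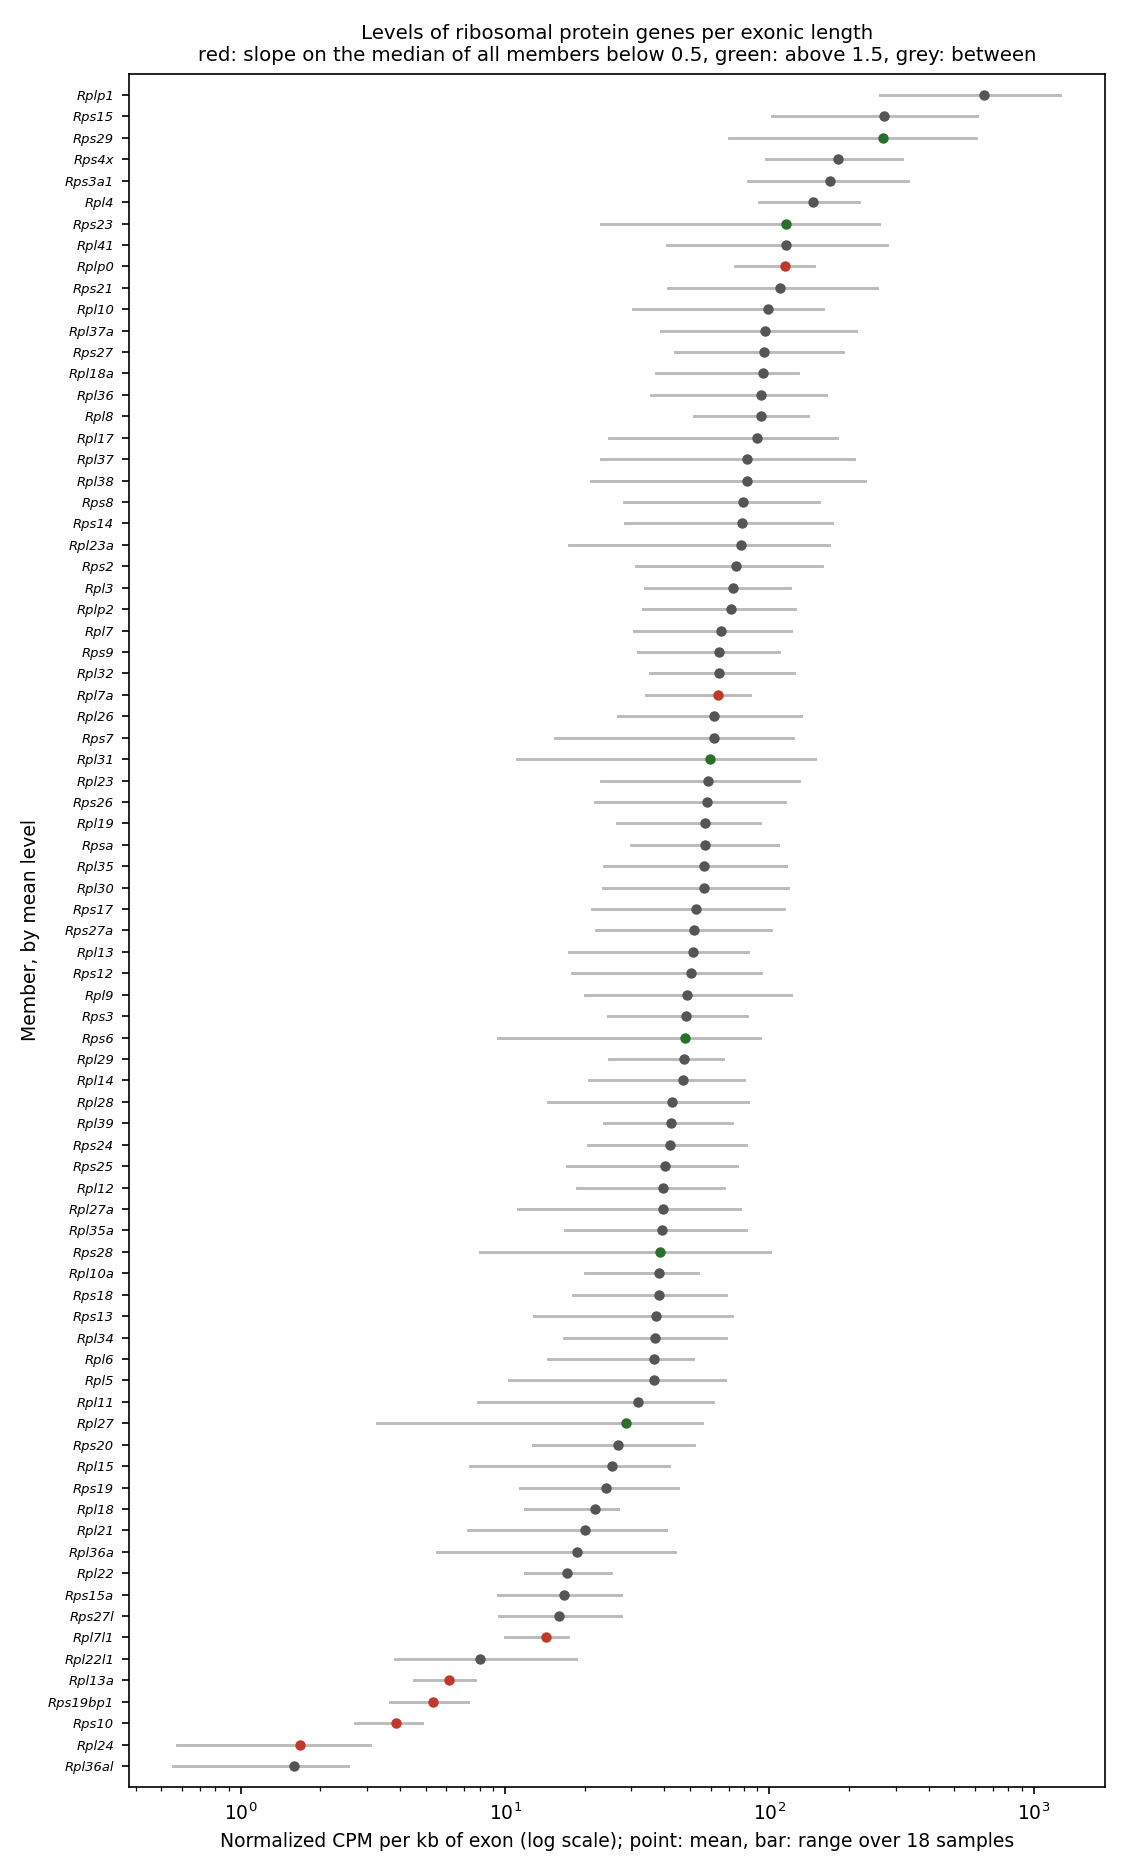
Mean level of 79 of the 81 genes in normalized CPM per kb of exon (log axis), with the range over 18 samples as a bar. *Rplp1* is at the top with 649 and *Rpl36al* at the bottom with 1.59, and the genes in red, which followed the family least, include 4 of the 5 lowest.

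Between libraries the family moved largely as 1 block, within every genotype group but Tyrobp-KO by a factor that exceeded the difference between group means. The summed share of the counts was 1.13%, 1.04%, 1.097%, 0.562% and 0.462% in WT replicates 1, 2, 6, 7 and 8. It was 1.05%, 1.03% and 1.31% in Tyrobp-KO replicates 15, 19 and 20. Q175 replicates 3, 4, 9, 14 and 17 had 0.773%, 0.795%, 0.432%, 1.39% and 1.14%. In Q175;Tyrobp-KO replicates 5, 11, 12, 13 and 16 it was 0.899%, 0.587%, 0.718%, 0.892% and 0.878%. The lowest library (Q175 replicate 9) and the highest (Q175 replicate 14), 3.21-fold apart, thus belonged to the same group, and the ranges of all groups overlapped except those of Tyrobp-KO and Q175;Tyrobp-KO. These 2 did overlap as a share of protein-coding counts (lowest Tyrobp-KO 1.26%, highest Q175;Tyrobp-KO 1.29%) and of the counts without the rRNA-like genes *Gm26917* and *Gm42418* (1.17% and 1.19%). Means were 0.859% ± 0.321 (SD, n = 5) in WT, 1.13% ± 0.155 (n = 3) in Tyrobp-KO, 0.905% ± 0.368 (n = 5) in Q175 and 0.795% ± 0.138 (n = 5) in Q175;Tyrobp-KO samples. The Wilson 95% interval of a share reached at most 0.00545 percentage points to either side and covers counting error only, since amplified reads without molecular identifiers are not independent molecules. The 3 genes with the most counts, *Rplp1*, *Rpl4* and *Rps4x*, took 3.50%, 3.25% and 3.22% of the family's counts, so no single gene set its share.

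**Figure D2:**
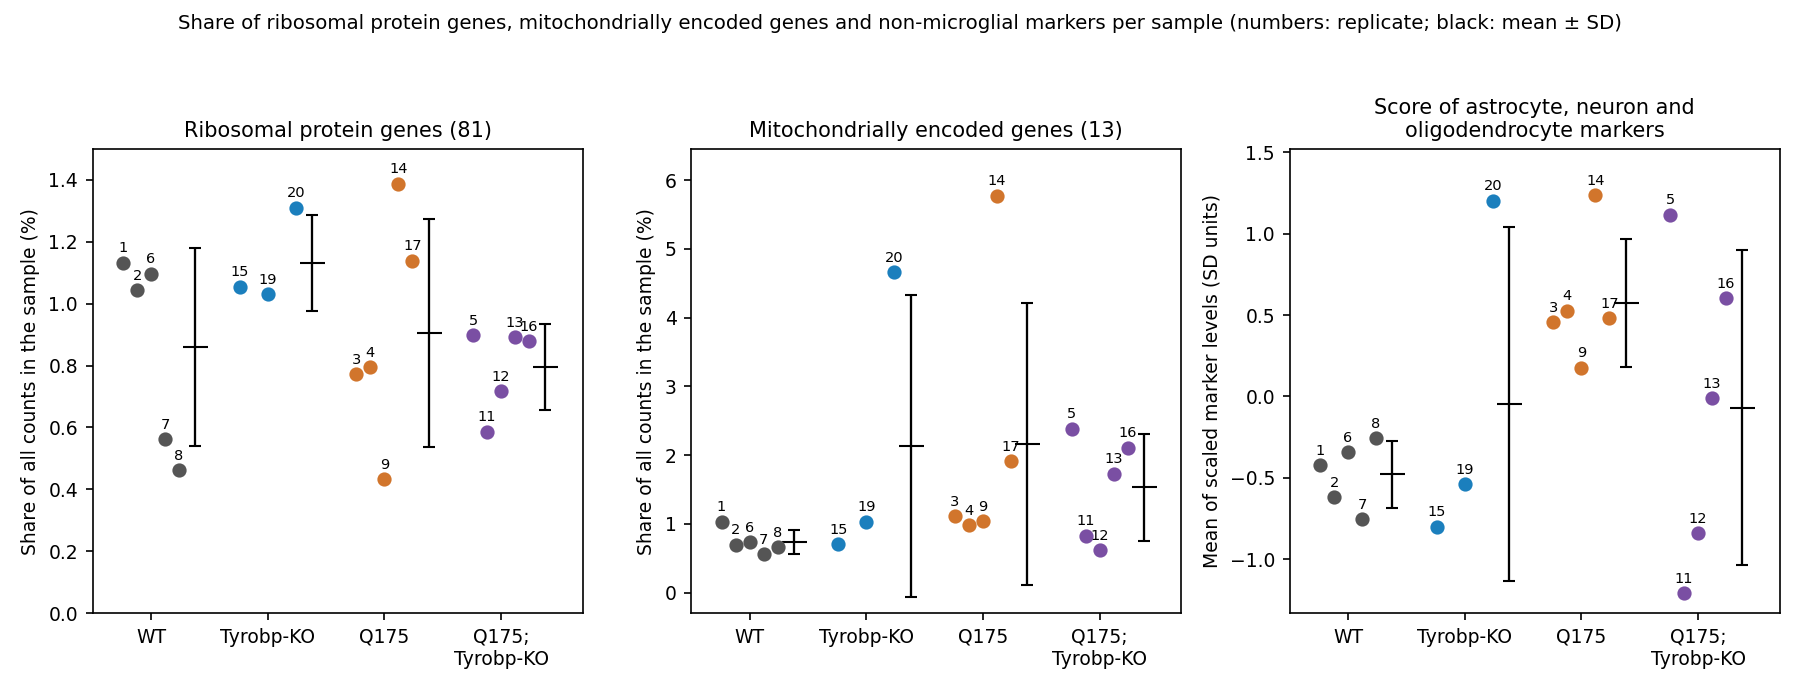
Each point is a sample, numbered by replicate, and black marks are mean ± SD of a group. The left panel gives the family's share of the counts (%), the middle panel that of mitochondrially encoded genes (%), and the right panel a score of non-microglial markers; WT replicates 7 and 8, Q175 replicate 9 and Q175;Tyrobp-KO replicate 11 have the 4 lowest shares on the left, and Tyrobp-KO replicate 20 and Q175 replicate 14 are highest in all 3 panels.

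For each member the deviation of log2(normalized CPM + 0.5) from its own mean was taken, and the median deviation over all 81 was the level of the block in a library. It was lowest in WT replicate 8 (−1.08 on the log2 scale) and highest in Tyrobp-KO replicate 20 (1.02), with a pooled within-group SD of 0.593. Of the 81 genes, 75, 78 and 77 were above their own mean in WT replicates 1, 2 and 6, but 3 and 2 in WT replicates 7 and 8. Among the Q175 samples, 80 and 78 genes were above it in replicates 14 and 17 and a single gene in replicate 9. Both subunits took part: block levels computed from *Rps* and from *Rpl* genes alone differed by at most 0.135 in any library. Among the 77 members with a mean of at least 10 normalized CPM the median within-group SD was 0.626 on the log2 scale, against 0.301 for all 10051 genes with that level, of which 90% were below 0.650. About the block level the members' median SD was 0.213, and that of *Rps18*, *Rplp2* and *Rpl35* was 0.0544, 0.112 and 0.118.

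**Figure D3:**
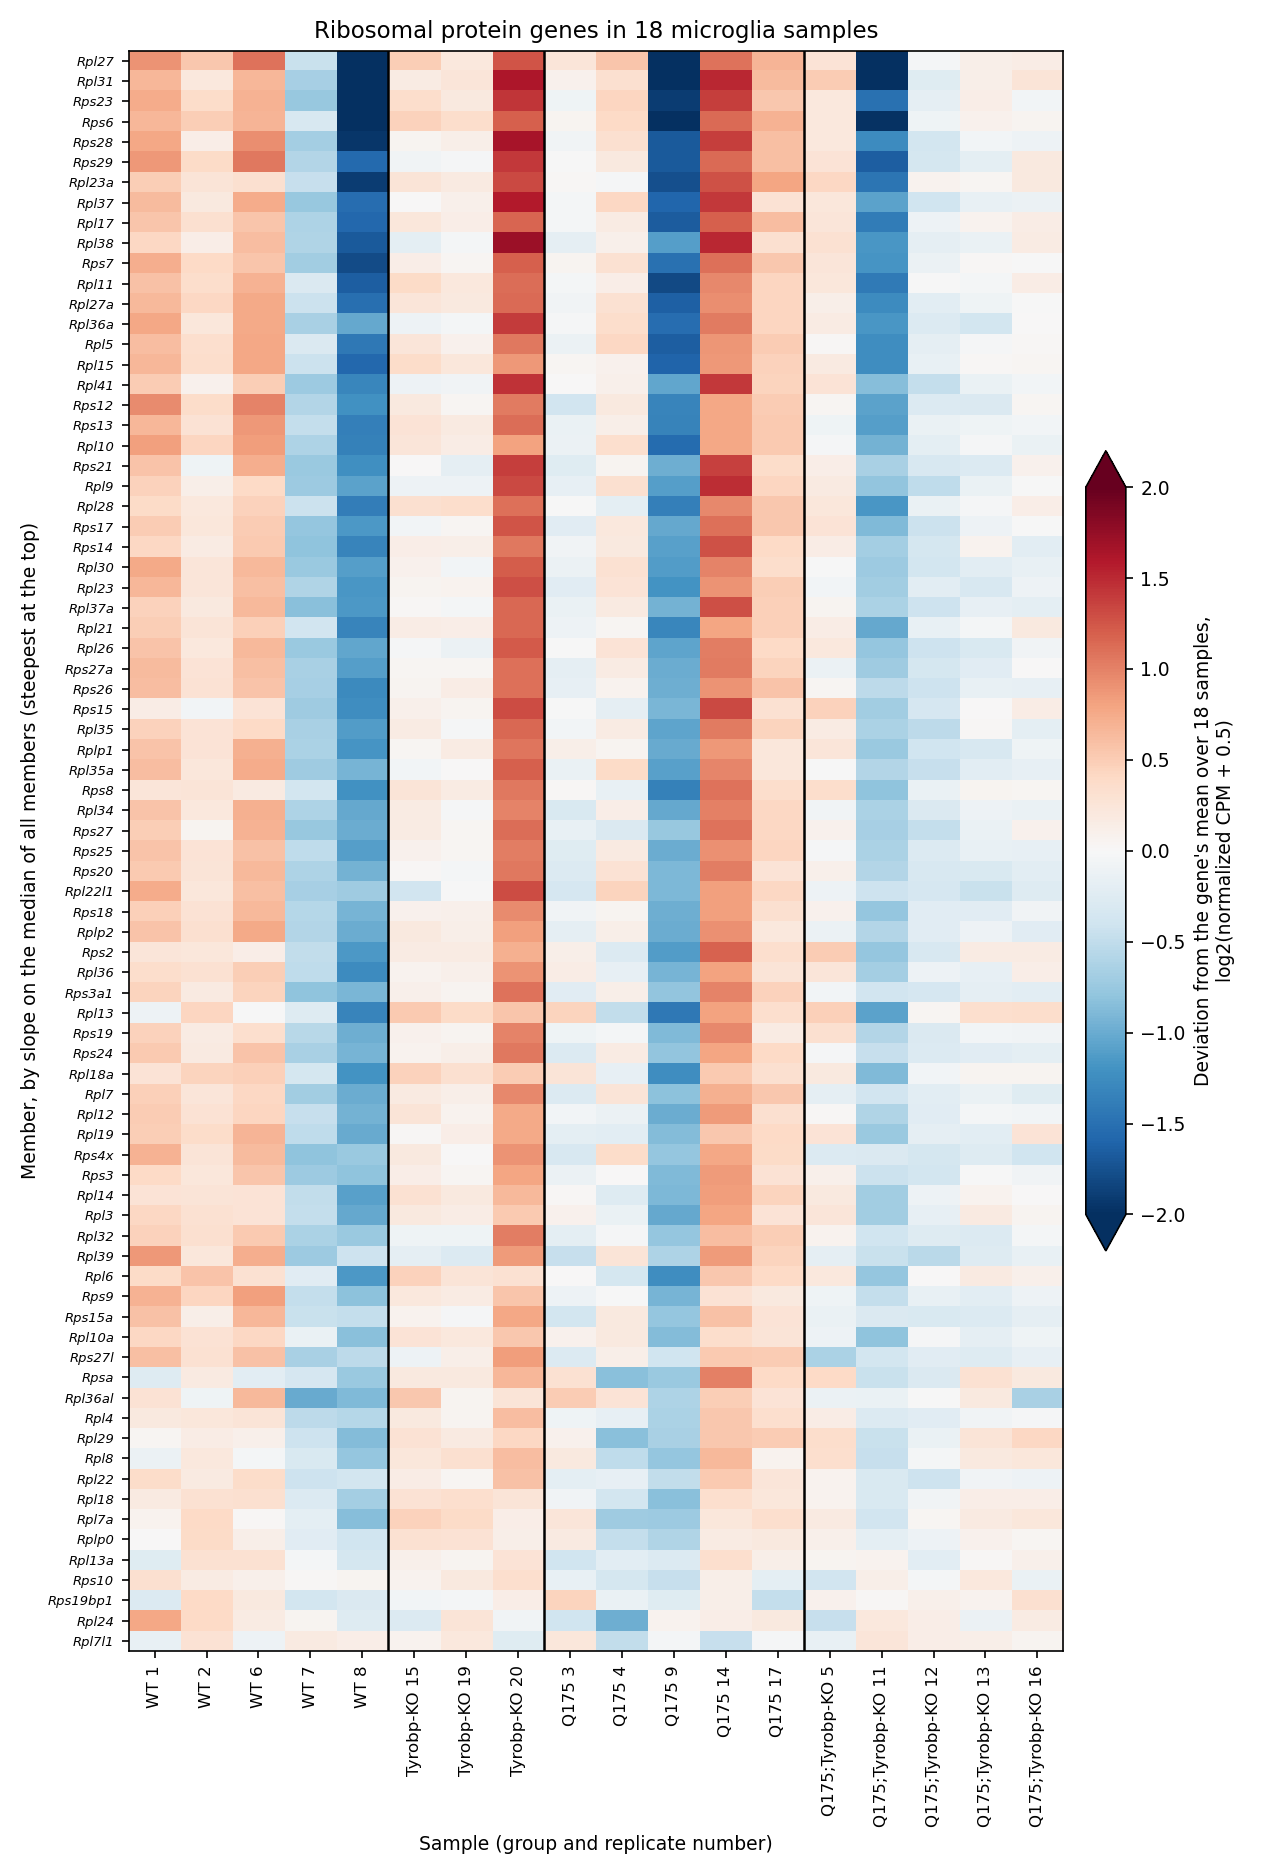
Deviation of 79 of the 81 genes from their mean over 18 samples in log2(normalized CPM + 0.5), colours ending at ±2, with genes ordered by their slope on the block level. WT replicate 8, Q175 replicate 9 and Q175;Tyrobp-KO replicate 11 are blue, and Tyrobp-KO replicate 20 and Q175 replicate 14 red, from the top nearly down to the genes that did not follow.

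How strongly a member followed the block was described by the slope of its deviations on the block level. The median slope was 0.99 and 68 of the 81 genes lay between 0.5 and 1.5. The block level is the median of these same members, so a median slope near 1 follows from its definition. The 6 steepest were *Rpl27* (1.90), *Rpl31* (1.80), *Rps23* (1.67), *Rps6* (1.64), *Rps28* (1.64) and *Rps29* (1.54). *Rpl27*, *Rpl31* and *Rps6* also had the largest within-group SDs of the members (1.25, 1.12 and 1.04). *Rps6* encodes the small-subunit protein phosphorylated downstream of mTOR. Its level was 101, 90.2, 102, 50.7 and 14.9 normalized CPM in the WT samples (replicates 1, 2, 6, 7 and 8). The Q175 samples (replicates 3, 4, 9, 14 and 17) had 66.0, 83.8, 15.3, 140.4 and 104. It was 87.8, 81.3 and 146 in the Tyrobp-KO samples and 73.8, 15.7, 59.9, 67.8 and 66.3 in Q175;Tyrobp-KO replicates 5, 11, 12, 13 and 16. Thus 1 library of each genotype but Tyrobp-KO was near 15, and the groups overlapped except that every Q175;Tyrobp-KO sample was below every Tyrobp-KO sample. *Rpl27* had the widest range of all, from 5.01 in Q175 replicate 9 to 84.9 in Tyrobp-KO replicate 20 (16.96-fold), where the median member had a range of 4.62-fold.

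Slopes under 0.5 were found for 7 genes: *Rpl7l1* (−0.21), *Rpl24* (0.10), *Rps19bp1* (0.14), *Rps10* (0.16), *Rpl13a* (0.25), *Rplp0* (0.33) and *Rpl7a* (0.46). *Rpl24*, *Rps19bp1*, *Rps10* and *Rpl13a* were also among the members of lowest level per kb. Exons of other genes overlap *Rpl24*, *Rps10* and *Rpl13a*, so their slopes are as uncertain as their levels. *Rpl7l1* is a paralog of *Rpl7*, and its level was between 35.04 and 60.3 normalized CPM over all samples, where *Rpl7* was between 82.9 and 323. *Rplp0*, the protein to which the other stalk proteins attach, ranged over 1.99-fold, and *Rpl13a* over 1.69-fold, the narrowest of the family. Of these 7 genes 3 held a tract at their start, and of the 5 members with a slope above 1.5 and a RefSeq entry 2 did (*Rps6* and *Rpl31*). The median slope was 0.960 for members with a tract and 1.01 for those in the table without one. Over the 81 genes, which share the same libraries, slope and exonic length had a Spearman rho of −0.14.

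Some other features of the libraries went with the block at its high end, and none did so throughout. The mitochondrially encoded share and the score of astrocyte, neuron and oligodendrocyte markers were highest in the 2 libraries with the highest block levels, with a score of 1.203 in Tyrobp-KO replicate 20 and 1.23 in Q175 replicate 14. In these 2 libraries the astrocyte markers deviated by 1.32 and 1.36 on the log2 scale and the microglial markers by −0.20 and −0.24. Q175;Tyrobp-KO replicate 5, with a score of 1.12, had a block level of 0.12. At the low end, where WT replicates 7 and 8, Q175 replicate 9 and Q175;Tyrobp-KO replicate 11 had scores between −1.21 and 0.18, the mitochondrially encoded share was between 0.554% and 1.04%. WT replicates 1, 2 and 6, with block levels of 0.26 to 0.56, had scores of −0.62 to −0.34 and mitochondrially encoded shares of 0.696% to 1.03%, within the ranges of the low libraries. The rRNA-like genes took 12.49% to 22.8% of the counts in the 4 low libraries and 28.55% and 23.2% in the 2 high ones, but their highest share was in Q175 replicate 4 (29.5%, block level 0.11) and their lowest in Tyrobp-KO replicate 19 (11.7%, block level 0.11). Other short genes leaned the same way by less. Over the 2377 other protein-coding genes in the shortest quartile of exonic length, the median deviation was −0.09, −0.15, −0.23 and −0.10 in the 4 low libraries and 0.11 and 0.07 in the 2 high ones. It was 0.08, 0.12 and 0.11 in WT replicates 1, 2 and 6, 0.08 and 0.11 in Tyrobp-KO replicates 15 and 19, and highest in Q175 replicate 17 (0.14). Its sign was opposite to that of the block level in Q175 replicates 3 and 4 and Q175;Tyrobp-KO replicates 5 and 16. The part of each in the family's levels was not tested.

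In Q175 against WT microglia the family did not separate the groups. Of 81 members, 65 had a log2 fold change above 0, where 46.7% of the 18266 genes tested did, but with a median of 0.13 (median SE 0.38) against −0.02 for all genes. edgeR's quasi-likelihood test called 0 members at an FDR of 0.1, where it called 0% of all genes, the smallest adjusted p was 0.935, and 0 members were under an unadjusted p of 0.05 (6.24% of all genes). DESeq2 called 0 members as well (1.28% of all genes). No member had every Q175 sample above every WT sample (0.788% of all genes) or below (0.301%). The smallest p belonged to *Rps10*, which lies at the entry of the mRNA channel and is a site of regulatory ubiquitylation. It had 11.1, 9.92, 9.43, 8.93 and 9.20 normalized CPM in the WT samples, in the order of replicates above, and 7.87, 6.79, 6.24, 9.63 and 7.62 in the Q175 samples. All Q175 samples but replicate 14 were below all WT samples, with a log2 fold change of −0.32 ± 0.19 (SE; edgeR, adjusted p = 0.935). Next were *Rpsa*, the laminin receptor gene whose product is part of the small subunit (0.48 ± 0.34, adjusted p = 0.981), and *Rps15* (0.55 ± 0.39, adjusted p = 0.982), both by edgeR. Without Q175 replicate 14 these were 0.16 and 0.11, without WT replicate 8 *Rps15* was at 0.37, with sex as a term they were 0.12 and 0.24, and with the marker score −0.71 and −1.38. Within females the block level averaged 0.32 in 4 Q175 samples and was −0.58 in the 1 WT sample, and within males it was −0.99 in 1 and averaged 0.06 in 4. The direction of the family's median rested on single libraries: it was −0.12 without Q175 replicate 14, −0.04 without WT replicate 7 and −0.06 without WT replicate 8, with 13, 34 and 30 members above 0. It was also −0.12 with sex as a term and −1.36 with the marker score, which did not overlap between the groups (−0.75 to −0.26 in WT, 0.18 to 1.23 in Q175), so that score and genotype cannot be told apart. It was 0.03 without Q175 replicate 17 and 0.27, 0.28 and 0.30 without WT replicate 1, WT replicate 6 and Q175 replicate 9.

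In Q175;Tyrobp-KO against Q175 microglia, most members had lower values, within the spread of the Q175 samples. Of 81 members 71 had a log2 fold change below 0, where 44.9% of all 18059 genes tested were above 0. The median was −0.39 (median SE 0.30) against −0.05 for all genes. edgeR called 0 members (0.0111% of all genes) with a smallest adjusted p of 0.533, DESeq2 called 0 (0.227% of all genes), and 1 member, *Rps27l*, had an unadjusted p under 0.05 (8.01% of all genes). No member separated every sample of the 2 groups (0.504% of all genes above, 0.36% below). *Rps27l*, a p53-responsive paralog of *Rps27*, had 10.1, 13.5, 9.22, 17.99 and 17.7 normalized CPM in Q175 replicates 3, 4, 9, 14 and 17. It had 7.76, 9.499, 10.4, 10.3 and 10.99 in Q175;Tyrobp-KO replicates 5, 11, 12, 13 and 16, so that Q175 replicates 14, 17 and 4 were above all of these and the others overlapped (log2 fold change −0.49 ± 0.21, edgeR adjusted p = 0.533). *Rps4x* (−0.50 ± 0.24) and *Rpl39* (−0.51 ± 0.25), both X-linked, followed with the same adjusted p. Within females, the block level averaged 0.05 in 2 Q175;Tyrobp-KO and 0.32 in 4 Q175 samples, and within males −0.33 in 3 and −0.99 in 1, the opposite order. The median was 0.04 with sex as a term, −0.13 without Q175 replicate 14 and −0.26 without Q175;Tyrobp-KO replicate 11. Leaving out Q175 replicate 9 gave −0.58 and 43 members under 0.05 (14.9% of all genes in that fit), leaving out Q175 replicate 3 gave 4 such members (10.8%), and leaving out any of Q175 replicates 4, 14 and 17 or Q175;Tyrobp-KO replicates 5, 11, 12 and 13 gave 0.

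In Tyrobp-KO against WT microglia nearly all members had higher values. Of 81 members, 80 had a log2 fold change above 0 (52.2% of the 18017 genes tested), with a median of 0.45 (median SE 0.39) against 0.02 for all genes. *Rpl24* was the exception (−0.28). edgeR called 0 members (0.0222% of all genes; smallest adjusted p 0.610), and so did DESeq2 (0.932% of all genes). An unadjusted p under 0.05 was found for 4 members (6.82% of all genes), and 3, *Rpl29*, *Rpl8* and *Rpsa*, had every Tyrobp-KO sample above every WT sample (1.2% of all genes), while none had every one below (3.28% of all genes). *Rpsa* had 142, 192, 147, 134 and 101 normalized CPM in the WT samples and 196, 195 and 269.5 in Tyrobp-KO replicates 15, 19 and 20 (log2 fold change 0.68 ± 0.23, edgeR adjusted p = 0.610). The highest WT sample was thus close below the lowest Tyrobp-KO sample. *Rpl8*, a protein near the peptidyl transferase centre, had 112, 141, 118, 97.97 and 70.5 in WT against 143, 152 and 186 in Tyrobp-KO samples (0.64 ± 0.23, edgeR adjusted p = 0.610). *Rps15* had the largest fold change (0.88 ± 0.38, edgeR adjusted p = 0.704), and its Tyrobp-KO values of 165, 159 and 379 overlapped WT values between 64.6 and 185. The fourth under 0.05 was *Rpl13*. Within females the block level averaged 0.58 in 2 Tyrobp-KO samples against −0.58 in 1 WT sample, and within males it was 0.11 in 1 against 0.06 in 4. Without Tyrobp-KO replicate 20 the median was 0.11 and 0 members were under 0.05 (11.5% of all genes in that fit), without WT replicate 8 the median was 0.25, and without WT replicate 7 the count under 0.05 was 2 (6.52%). The 7 border macrophage markers were at 5.198 to 5.22 normalized CPM in Tyrobp-KO against 2.797 to 4.06 in WT samples, with no overlap, and the 10 monocyte or neutrophil markers at 4.78 to 9.64 against 0.869 to 11.6, and their part in the result was not tested.

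The widest difference was that between Q175;Tyrobp-KO and Tyrobp-KO microglia, both without *Tyrobp*. Of 81 members 78 had a log2 fold change below 0 (48.7% of the 17723 genes tested were above 0), with a median of −0.70 (median SE 0.26) against −0.01 for all genes. At an unadjusted p under 0.05, 49 members were lower and 0 higher (13.2% of all genes in either direction), and 30 had every Q175;Tyrobp-KO sample below every Tyrobp-KO sample (5.92% of all genes) and 0 every one above (4.06%). None passed the FDR of 0.1 in edgeR (0% of all genes; smallest adjusted p 0.291). DESeq2 called 5 members lower, *Rps4x*, *Rps9*, *Rpl7*, *Rplp2* and *Rps24* (3.84% of all genes). *Rps4x* had 316, 279 and 517 normalized CPM in Tyrobp-KO replicates 15, 19 and 20 and 228, 227, 217, 229.8 and 209 in Q175;Tyrobp-KO replicates 5, 11, 12, 13 and 16 (log2 fold change −0.76 ± 0.19, edgeR adjusted p = 0.291). The 5 Q175;Tyrobp-KO samples were close together and below the others. *Rps9*, a decoding-site protein of the small subunit, had 178, 174 and 228 against 146, 111, 139, 133 and 144 (−0.54 ± 0.14, edgeR adjusted p = 0.291). *Rpl7* had 187, 179.7 and 323 against 146, 127, 143, 151 and 139.8 (−0.72 ± 0.19, edgeR adjusted p = 0.291). Within females the block level averaged 0.05 in 2 Q175;Tyrobp-KO against 0.58 in 2 Tyrobp-KO samples, and within males −0.33 in 3 against 0.11 in 1. Without Tyrobp-KO replicate 20, whose mitochondrially encoded share was 4.66% against 0.704% and 1.03% in the other 2, the median was −0.31 and 11 members were under 0.05 (15.9% of all genes in that fit). That count was 30, 26, 32 and 32 without Q175;Tyrobp-KO replicates 11, 12, 13 and 16 (9.03% to 11.7% of all genes). In 1 fit over all 4 groups it was 2 (5.13%). It was above 49 without Q175;Tyrobp-KO replicate 5 (60, 14.2%) and without Tyrobp-KO replicates 15 and 19 (50 and 55, 12.1% and 13.7%). DESeq2 gave 55 (14.7%). With sex as a term the median was −0.56 and 33 members were under 0.05 (11.7%). With the marker score as a term the median was −0.65 and 71 were (19.9%). Border macrophage markers were at 2.74 to 4.35 normalized CPM in Q175;Tyrobp-KO against 5.198 to 5.22 in Tyrobp-KO samples, with no overlap. Endothelial markers were at 1.79 to 2.67 against 2.19 to 7.45, and the part of either in the result was not tested.

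**Figure D4:**
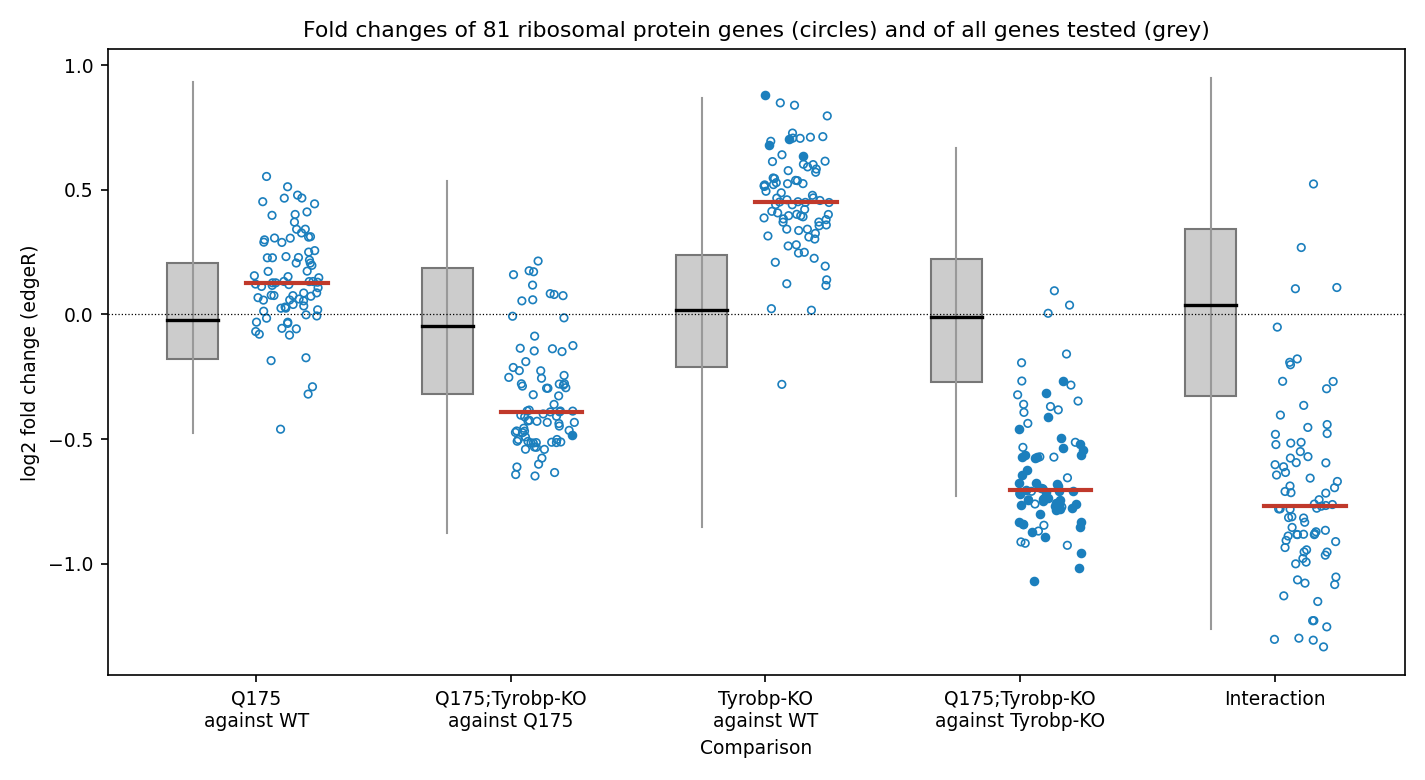
log2 fold changes from edgeR for the 81 genes (circles, filled where the unadjusted p was under 0.05, red line at their median) beside all genes tested (grey box from the 25th to the 75th percentile, line from the 5th to the 95th, black line at the median). The members' medians are 0.13, −0.39, 0.45, −0.70 and −0.77 from left to right.

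The interaction, which is the Q175 effect without *Tyrobp* minus the Q175 effect with it, had a log2 value below 0 in 77 of 81 members (53.3% of 18613 genes were above 0) and a median of −0.77 (median SE 0.54) against 0.04 for all genes. edgeR called 0 members (0% of all genes; smallest adjusted p 0.716), DESeq2 0 (0.0107%), and 0 were under an unadjusted p of 0.05 by edgeR (6.01% of all genes). Over the 4 groups at once, edgeR and DESeq2 called 0 members (0.113% of all genes by edgeR and 0.548% by DESeq2; smallest adjusted p 0.732), and 0 were under 0.05 (6.02% of all genes). Each group enters 2 of the 4 pairwise comparisons, which are therefore not independent of each other. Without Tyrobp-KO replicate 20 the interaction's median was −0.46, and without both that library and Q175 replicate 14 it was −0.22. With sex or the marker score as a term it was −0.31 and −0.15. Without Q175 replicate 9, 26 members were under 0.05 (10.2% of all genes in that fit). Without WT replicates 1 or 6, or Tyrobp-KO replicates 15 or 19, between 4 and 6 were (6.1% to 8.66% of all genes). Without Q175 replicates 3 or 4, or Q175;Tyrobp-KO replicate 5, between 1 and 4 were (5.79% to 8.13%). DESeq2 gave 4 (7.41%), tests without a filter 12 (6.23%) and TMM without *Gm26917* and *Gm42418* 3 (5.52%).

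Members with special roles followed the same outline with different amplitude. Of the stalk, which recruits the elongation factors, *Rplp1* and *Rplp2* had slopes of 1.06 and 0.95 on the block and *Rplp0* 0.33. *Rplp1* had 441, 359, 488, 193 and 131 normalized CPM in the WT samples and 306, 334 and 629 in the Tyrobp-KO samples. It had 322, 311, 147, 541 and 349.9 in the Q175 samples and 354, 177, 226, 239 and 282 in the Q175;Tyrobp-KO samples. *Rplp0* lay between 141 and 244 in WT and between 203 and 229.96 in Tyrobp-KO samples. It lay between 123 and 215 in Q175 and between 163 and 201 in Q175;Tyrobp-KO samples. The ratio of *Rplp1* to *Rplp0* mRNA counts thus differed between libraries. *Rpl5* and *Rpl11*, which with 5S rRNA form the particle that binds Mdm2, had slopes of 1.27 and 1.37. *Rpl11* had 23.97, 21.3 and 28.1 normalized CPM in WT replicate 8, Q175 replicate 9 and Q175;Tyrobp-KO replicate 11 and between 62.3 and 164 in the other 15 samples. *Rps27a*, made as a fusion with ubiquitin, had a slope of 1.07 and means of 100.4 ± 46.9 (SD, n = 5) in WT, 131 ± 60.3 (n = 3) in Tyrobp-KO, 111 ± 54.2 (n = 5) in Q175 and 78.1 ± 14.1 (n = 5) in Q175;Tyrobp-KO samples. *Rpl10*, an X-linked protein added late to the large subunit, had a slope of 1.205, with means of 216 ± 117, 246 ± 64.5, 207 ± 95.9 and 156 ± 35.1 in the same order of groups.

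Paralog pairs differed in level and in how far they followed. *Rpl22* and *Rpl22l1* had 17.2 and 8.05 normalized CPM per kb, with slopes of 0.54 and 0.96. *Rpl36a* and *Rpl36al* had 18.7 and 1.59 per kb, with slopes of 1.29 and 0.63, and *Rps27* and *Rps27l* had 95.5 and 15.9 per kb, with slopes of 1.02 and 0.68. *Rpl7* and *Rpl7l1* had 65.5 and 14.3 per kb, with slopes of 0.89 and −0.21. *Rpl3* (72.6 per kb) and *Rpl39* (42.6 per kb) were detected with slopes of 0.83 and 0.82, while the muscle paralog *Rpl3l* and the paralog *Rpl39l* stayed under the CPM minimum. In every pair where both passed the minimum the canonical gene had the higher level per kb.

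Among members that lie within 15 Mb of *Tyrobp* on chromosome 7, *Rps19* (5.53 Mb away) and *Rpl13a* (14.7 Mb) had log2 fold changes of 0.52 ± 0.35 and 0.19 ± 0.23 in Tyrobp-KO against WT samples. In Q175;Tyrobp-KO against Q175 samples they had −0.26 ± 0.29 and 0.08 ± 0.17 (edgeR, adjusted p between 0.674 and 0.999 in both comparisons). Each of these differences was less than 2 times its SE. *Rps19* was at 0.082 in the latter comparison with sex as a term, and its values were nearer to the median of the family than those of *Rpl13a* in both comparisons.

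Genes that work with the ribosome followed the block to different degrees. Of 23 translation factors and ribosome-associated genes whose mRNAs belong to the TOP class, such as *Eef1g* and *Eef2*, the median deviation ranged from −0.60 in Q175 replicate 9 to 0.49 in Tyrobp-KO replicate 20. It was −0.44 and −0.30 in WT replicates 8 and 7. Of 77 measured mitochondrial ribosomal proteins, which are encoded in the nucleus and build a separate ribosome, it ranged from −0.34 in Q175 replicate 9 to 0.27 in WT replicate 6. The 44 ribosome biogenesis genes (−0.10 to 0.19) and the 23 genes of growth control (mTOR and stress signalling; −0.19 to 0.14) varied least. edgeR called 0 genes of these 4 lists in any pairwise comparison or the interaction. In Q175;Tyrobp-KO against Tyrobp-KO samples, 11 of 23 translation factors were lower and 0 higher at an unadjusted p under 0.05, where 13.2% of all genes were under it in either direction. *Hnrnpa1*, an RNA-binding protein, had −0.65 ± 0.12 and the helicase subunit *Eif4a2* −0.62 ± 0.14. Of the mitochondrial ribosomal proteins 16 of 77 were lower and 0 higher, of the biogenesis genes 8 of 44 lower and 2 higher, and of growth control 3 of 22 lower and 1 higher, with *Ddit4*, an inhibitor of mTOR, at −0.89 ± 0.29. In Tyrobp-KO against WT samples (6.82% of all genes under 0.05), 2, 2 and 0 genes of the first 3 lists were higher at that p and 0 lower, and of growth control 1 was higher and 2, *Tsc2* (−0.58 ± 0.21) and *Mtor* (−0.53 ± 0.20), were lower. In Q175 against WT samples (6.24% of all genes) a single gene of the 4 lists was under 0.05, the biogenesis factor *Rrs1* (0.67 ± 0.27), and in Q175;Tyrobp-KO against Q175 samples (8.01% of all genes) *Eif3e* (−0.49 ± 0.19) and *Rrp9* (−0.35 ± 0.15) were. In the interaction (6.01% of all genes) 2 mitochondrial ribosomal proteins were lower at that p, and of growth control 1 gene was higher and 1 lower.

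**Figure D5:**
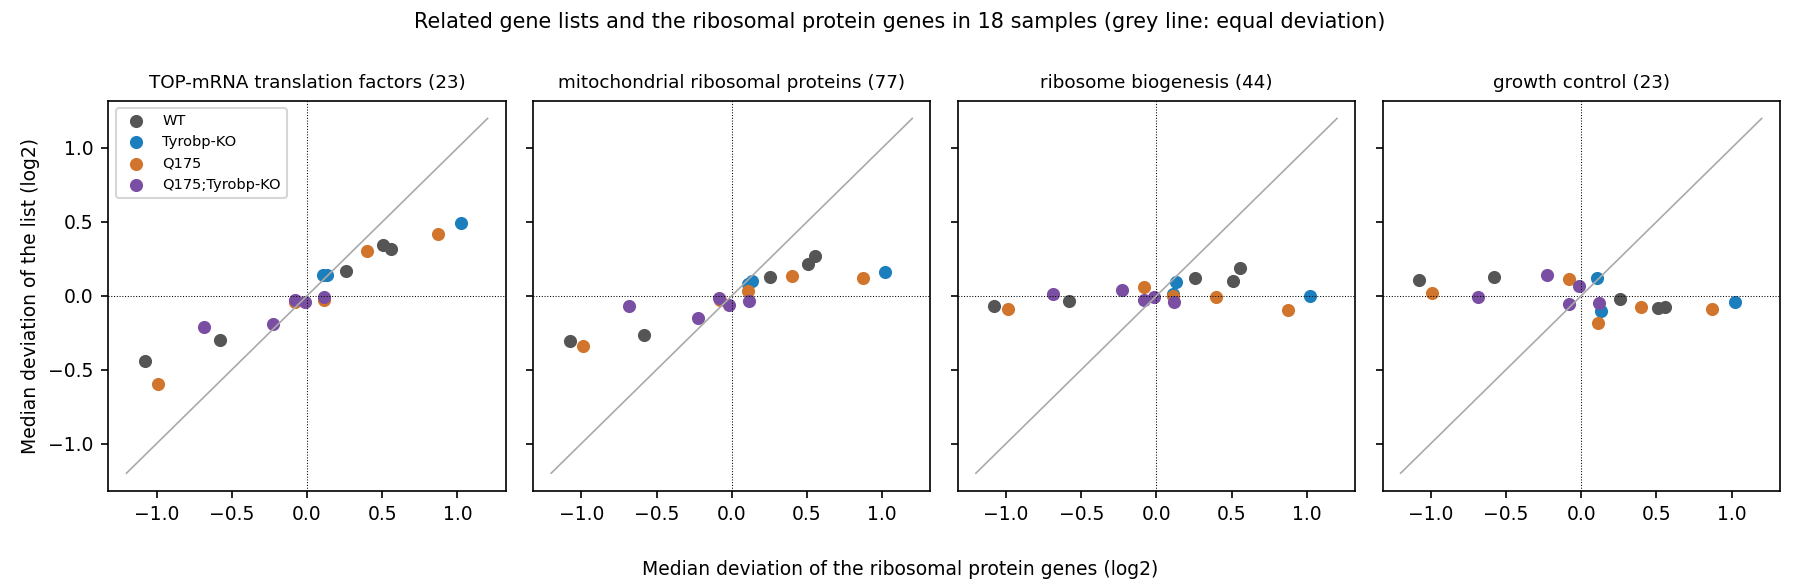
Median deviation (log2) of 4 related gene lists against that of the ribosomal protein genes, 1 point per sample coloured by genotype, with a grey line where both deviate equally. Translation factors reach from −0.60 to 0.49 and mitochondrial ribosomal proteins from −0.34 to 0.27, while biogenesis and growth control stay between −0.19 and 0.19.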

How the data were processed

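The deposited values are counts, whole numbers per Ensembl gene without normalization, which the authors made from SMART-Seq libraries by alignment to GRCm38 (STAR) and read assignment (featureCounts). All 55536 identifiers matched GENCODE M21, which gave symbols, positions and exonic lengths, although the methods name a UCSC gene model and the submitters' processing notes a human build. The count table also holds 2 columns that match no labelled sample and that no step used. Total counts were 11260410 to 29771983 per sample.

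The members, gene lists and naming rule were chosen with earlier results of these data known. Symbols ending in -ps followed by a number were left out with those ending in -ps, and some ribosomal protein genes are not reported here by name. Counts were scaled with TMM in edgeR 4.0.16 (R 4.3.3). The quasi-likelihood test of edgeR was run on genes that reached 1 CPM in 1 or more samples compared, each pair on its own samples and the interaction and the 4 groups over all 18, at a Benjamini-Hochberg FDR of 0.1 over all genes tested. The block level is the median over members of log2(normalized CPM + 0.5) centred per gene. The score of non-microglial markers is the mean of the scaled astrocyte, neuronal and oligodendrocyte levels. Named members are the 3 with the smallest p in each pairwise comparison, the 5 highest and 5 lowest per kb, the 3 with the largest within-group SD and a mean of at least 10 CPM, those within 15 Mb of *Tyrobp*, those with the roles and paralogs described, and up to 4 genes of smallest p per related list. Others were named after their values were seen. The alternatives were DESeq2 1.42.0, its size factors, total counts, TMM without *Gm26917* and *Gm42418*, 1 fit over all groups, filterByExpr, tests without a filter, sex or the score as a term, a stricter FDR of 0.05, and leaving out each sample. Leaving out Tyrobp-KO replicate 20 and Q175 replicate 14 together was added after seeing the data. The fits were tested on simulated counts drawn independently for each gene, without the shared movement between libraries that the family showed. Start sequences are those of RefSeq for GRCm38.p6.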

Additional observations from a re-analysis of the deposited data

Results flagged for a closer look

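In groups of 5 samples, 102 sets of values of named members were examined for a single sample far from the others, and 9 were found. Chance flags about 1 in 20 such groups. Of the 9, 6 were Q175;Tyrobp-KO replicate 11 far below the other 4: *Rpl5* (54.2 normalized CPM), *Rpl10* (94.6), *Rpl11* (28.1), *Rplp2* (91.4), *Rps6* (15.7) and *Rpl27* (8.46). These 6 genes all followed the block, so they repeat 1 low library. The other 3 were *Rpl36al* in Q175 replicate 9 (1.15), *Rpl13a* in Q175;Tyrobp-KO replicate 12 (10.96), both below their groups, and *Rps19bp1* in Q175;Tyrobp-KO replicate 16 (7.17), above its group. No explanation was tested.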

How the results depend on the processing

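No paired analysis was possible because the groups compared have no replicate numbers in common. edgeR called 0 members in every comparison under every alternative run, and DESeq2 called 5 in Q175;Tyrobp-KO against Tyrobp-KO samples: *Rps4x* (adjusted p = 0.0357), *Rps9* (0.0359), *Rpl7* (0.0547), *Rplp2* (0.0583) and *Rps24* (0.0978). Of the 234 alternative values of the counts of called members, medians and shares, 226 stayed within the spread or within 1.5 times the value reported. For a median the spread was the pooled within-group SD of the block level, 0.593. Medians that changed sign therefore also counted as staying, and this number does not describe how stable the directions were. Once the score of non-microglial genes entered the fit, the median of Q175 against WT was −1.36, *Rpsa* was at −0.71 and *Rps15* at −1.38. With sex as a term that median was −0.12. In Q175;Tyrobp-KO against Q175 the median was 0.04 with sex and −0.00 with the score, and *Rps19* was at 0.082 with sex, 0.11 with the score, and between −0.43 (without Q175 replicate 9) and 0.042 (without Q175 replicate 14). Leaving out single samples gave medians of −0.12 to 0.30 in Q175 against WT, −0.58 to −0.13 in Q175;Tyrobp-KO against Q175, 0.11 to 0.63 in Tyrobp-KO against WT and −0.86 to −0.31 in Q175;Tyrobp-KO against Tyrobp-KO. Over counts of protein-coding genes alone the family's mean share was 1.19% in WT, 1.56% in Tyrobp-KO, 1.28% in Q175 and 1.05% in Q175;Tyrobp-KO samples, and without *Gm26917* and *Gm42418* in the total it was 1.41% in Tyrobp-KO and 0.971% in Q175;Tyrobp-KO samples. The smallest adjusted p of a member over the alternatives was between 0.700 and 1.0 in Q175 against WT, 0.297 and 0.930 in Q175;Tyrobp-KO against Q175, 0.258 and 0.991 in Tyrobp-KO against WT, 0.0357 and 0.754 in Q175;Tyrobp-KO against Tyrobp-KO and 0.487 and 1.0 for the interaction. The cause of these shifts was not tested. In Tyrobp-KO against WT the median was 0.21 with the score. The lowest count of a member in any sample was 6.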
